A study of Homo sapiens with 36 samples.

Results

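The genes described here are 68 protein_coding genes of axon guidance, taken from the 60656 genes with a deposited value by symbol alone. The rule took the Eph receptors, the ephrins, semaphorins of classes 3 to 7, plexins, neuropilins, SLIT and ROBO genes, netrins and UNC5 receptors of the GENCODE annotation, and no measured value entered it. They comprise 8 ephrins (5 of the A type and 3 of the B type), 14 Eph receptors (9 EphA and 5 EphB), 20 semaphorins (7 of class 3, 6 of class 4, 2 of class 5, 4 of class 6 and 1 of class 7), 9 plexins, 2 neuropilins, 3 SLIT ligands, 4 ROBO receptors, 4 netrins and 4 UNC5 receptors.

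These genes encode ligands and receptors that steer growing axons and migrating cells. Ephrins are held in the membrane and bind Eph receptor tyrosine kinases on neighbouring cells, so that both cells can receive a signal, and secreted class 3 semaphorins bind a neuropilin paired with a plexin, whereas most other semaphorins bind plexins directly. SLIT ligands act on ROBO receptors and netrins on UNC5 receptors and DCC, usually through the actin cytoskeleton, and the neural crest, from which melanocytes arise, is guided by the same families.

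RNA-Seq was performed on 3 human melanoma lines with a BRAF mutation, namely 1205LuTR-NR2F1 (below 1205Lu), WM793TR-NR2F1 (WM793) and A375TR-NR2F1 (A375). Every group holds a Tet repressor together with a doxycycline (DOX)-inducible cDNA of the orphan nuclear receptor NR2F1. The 4 treatments were BRAFi + MEKi, its vehicle DMSO, and each of these with DOX (BRAFi + MEKi + DOX, and DMSO + DOX), with PLX4720 at 1 µM as BRAF inhibitor, PD0325901 at 35 nM as MEK inhibitor and DOX at 100 ng/mL, for 72 hours. A 24 hour pretreatment came first, which the labels give as with or without DOX, while the study's methods describe DOX for all cells and set no group apart. If the groups without DOX received it for those 24 hours, DOX against no DOX compares longer with earlier exposure, and the files used here do not settle this. There were 3 replicate libraries in each of the 12 groups, 36 in all. The study describes its in vitro replicates as independent experiments. No sequenced library came from cells given DOX without the NR2F1 construct, so DOX and NR2F1 cannot be told apart here. A375 cells were grown in a different medium from the other lines, so line and medium cannot be told apart either. 1205Lu is a metastatic derivative of WM793, and A375 is of another origin. In bulk samples such as these, fewer cells of a type and less RNA per cell cannot be told apart.

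The deposited values are normalised expression levels that are not read counts, and they added up to between 27027824 and 34621958 per library. Depth estimated from the commonest low value differed between libraries and was lowest in WM793 DMSO replicate 1 (where 1 read was worth an estimated 5.10, against a median of 1.01 over the libraries, and 16636 genes were above 0) and highest in A375 DMSO + DOX replicate 1 (23506 genes). Log2 values of libraries of one group correlated across genes with r between 0.964 and 0.986, and no libraries were identical. WM793 DMSO replicate 1 stood apart, with r of 0.964 and 0.967 with its group mates, which correlated at 0.981, and without it 29 rather than 31 guidance genes passed for BRAFi + MEKi against DMSO. NR2F1 lay between 14995 and 76313 in the WM793 and A375 libraries with DOX and between 321 and 3690 in those without. In 1205Lu it rose by DOX under BRAFi + MEKi by 3.33 on the log2 scale. Under DMSO it was at 6273, 2182.25 and 2327 without and 20699, 9155 and 9270 with DOX, higher with DOX in each library and without overlap, a difference of 1.93 that did not pass the test (adjusted p = 0.41). Of 13 MAPK output genes, which RAF and MEK signalling keeps high, 11 to 13 fell with BRAFi + MEKi in each line, with and without DOX, and none rose. The melanocyte lineage factor SOX10 stood between 5684 and 24854 in every library, whereas the pigment cell antigen MLANA stayed under 1 in every library and tyrosinase (TYR) under 5.

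Promoter windows from 250 bases before to 50 bases after the start site were found for 58 of the 68 genes in the RefSeq table for GRCh38.p14. They are shown for 5 genes on which the results turn: the 2 genes that passed for DOX under BRAFi + MEKi with all libraries at equal weight and no replicate block (EFNA1 and SEMA3C), the gene with the largest BRAFi + MEKi response (SLIT1), and 2 genes with a searched motif in the window whose levels moved in every line (PLXNB1 and NTN4). The letters searched on both strands were AGGTCA (nuclear receptor site), its direct repeat with 1 base between (DR1), TGANTCA (AP-1), CCGGAAG (ETS), CACGTG and CATGTG (E-boxes), and matches are in capitals. The windows of EFNA1, SEMA3C and SLIT1 held none of these letters. The windows are chr1:155127626-155127925 on the plus strand for EFNA1, chr7:80922340-80922639 on the minus strand for SEMA3C, chr10:97185910-97186209 on the minus strand for SLIT1, chr3:48430037-48430336 on the minus strand for PLXNB1 and chr12:95791106-95791405 on the minus strand for NTN4.
EFNA1: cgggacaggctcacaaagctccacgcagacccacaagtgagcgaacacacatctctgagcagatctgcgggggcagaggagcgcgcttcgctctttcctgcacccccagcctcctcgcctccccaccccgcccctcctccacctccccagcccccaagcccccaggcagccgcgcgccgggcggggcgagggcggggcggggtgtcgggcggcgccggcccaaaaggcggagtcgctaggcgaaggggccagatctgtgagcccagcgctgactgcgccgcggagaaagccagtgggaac
SEMA3C: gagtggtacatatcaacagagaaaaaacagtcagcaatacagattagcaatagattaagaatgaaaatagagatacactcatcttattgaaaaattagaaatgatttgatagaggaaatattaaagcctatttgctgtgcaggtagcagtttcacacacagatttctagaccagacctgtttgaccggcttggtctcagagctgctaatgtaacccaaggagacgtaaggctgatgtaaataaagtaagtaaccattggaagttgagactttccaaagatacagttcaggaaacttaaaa
SLIT1: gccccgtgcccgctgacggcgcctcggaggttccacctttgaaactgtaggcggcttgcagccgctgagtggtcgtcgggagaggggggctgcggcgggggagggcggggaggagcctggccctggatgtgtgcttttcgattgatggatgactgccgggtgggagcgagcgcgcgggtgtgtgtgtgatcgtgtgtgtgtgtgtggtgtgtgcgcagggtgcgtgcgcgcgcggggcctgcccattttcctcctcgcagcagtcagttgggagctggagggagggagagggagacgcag
PLXNB1: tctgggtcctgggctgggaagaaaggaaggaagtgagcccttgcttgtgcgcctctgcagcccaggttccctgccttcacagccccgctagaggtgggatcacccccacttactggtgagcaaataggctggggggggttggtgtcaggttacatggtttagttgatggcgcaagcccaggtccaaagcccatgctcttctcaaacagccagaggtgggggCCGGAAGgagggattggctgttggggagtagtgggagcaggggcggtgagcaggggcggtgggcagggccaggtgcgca
NTN4: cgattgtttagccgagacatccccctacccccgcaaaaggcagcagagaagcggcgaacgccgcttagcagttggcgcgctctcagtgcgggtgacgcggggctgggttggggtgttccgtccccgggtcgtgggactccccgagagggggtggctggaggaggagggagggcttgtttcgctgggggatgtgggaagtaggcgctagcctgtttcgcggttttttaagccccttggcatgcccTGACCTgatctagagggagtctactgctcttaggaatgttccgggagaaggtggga

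The PLXNB1 window holds CCGGAAG, which starts 29 bases before the start site, and the NTN4 window holds AGGTCA on the opposite strand, 6 bases before it. AGGTCA was found in 6 of the 58 windows (10.3%; EFNA4, NTN4, ROBO4, SEMA3E, SEMA5A and SEMA5B) and in 13.8% of the 34943 windows of all genes, and the DR1 repeat in none of the 58 and in 0.0229% of all. Only 1 window was kept per guidance gene, whereas the 34943 are all different windows with no limit of 1 per gene. The shares are therefore not like for like. CCGGAAG stood in 2 windows (3.45%; PLXNB1 and SEMA4B) against 10.2% of all, and TGANTCA in 1 (1.72%; PLXNC1) against 7.72%. The E-box CACGTG occurred in 4 windows (6.90%) against 7.23%, and CATGTG in 6 (10.3%) against 11.1%. Bases differed widely among the windows shown, with 71.7% G and C in EFNA1 and 36% in SEMA3C, while the median was 66.2% for the 58 windows and 58.7% for all. A match describes letters in the window, and no binding was measured.

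Under DMSO, the neuropilin NRP2, a co-receptor of class 3 semaphorins, was the most abundant of these genes per kb of exon in 1205Lu and WM793, and the ephrin-A receptor EPHA2 in A375. NRP2 stood at 3438, 2510.3 and 3107 per kb in the 1205Lu libraries and at 1877, 1482 and 1362 in WM793, against 356, 366 and 427 in A375. EPHA2 stood at 1159.7, 1241 and 1272 per kb in 1205Lu, 407, 618 and 563 in WM793 and 2841, 2760.1 and 4119 in A375. The 3 lines did not overlap for EPHA2, with A375 highest and WM793 lowest, and for NRP2 A375 lay below both other lines. The other neuropilin, NRP1, which also binds VEGF, was at 337, 351 and 466 per kb in A375 and overlapped NRP2 there.

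Among the ligands, EFNA1 led the ephrin-A genes in every line, with 214, 288 and 230.1 per kb in 1205Lu, 223, 285 and 340.0 in WM793 and 908, 894 and 643 in A375. EFNB2, an ephrin-B with a role in vessel and neural crest boundaries, led its group at 319.7, 336 and 342 per kb in 1205Lu, at 437, 595 and 467 in WM793 and at 105, 99.1 and 136 in A375, where it overlapped EFNB1. The secreted semaphorin SEMA3B led class 3 in 1205Lu (611, 655 and 809 per kb) and WM793 (310.5, 744 and 1068), where it overlapped SEMA3C, and SEMA3C led in A375 (941, 967 and 874). Of class 4, which is membrane-bound, SEMA4C was highest in 1205Lu (696, 513 and 542 per kb) and WM793 (591, 609 and 653) and SEMA4B in A375 (250.4, 262 and 312), where both overlapped. SEMA5A stood at 168, 118 and 199.7 per kb in 1205Lu, at 121, 82.0 and 64.7 in WM793 and at 3.06, 4.36 and 9.36 in A375, and its class partner SEMA5B was below 1 in each. SEMA6B, a transmembrane ligand, led class 6 at 211, 161 and 184 per kb in 1205Lu, at 81.4, 151 and 172 in WM793 and at 243, 221 and 239 in A375, and overlapped SEMA6D in the first 2 lines. SEMA5A was thus far lower in A375 than in the other lines, and SEMA6B was of the same order in each.

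SEMA7A, which is anchored in the membrane by a lipid and binds integrins and PLXNC1, stood at 56.5, 47.2 and 54.5 per kb in 1205Lu, 25.5, 29.0 and 28.9 in WM793 and 548, 519 and 843 in A375. The leading SLIT gene differed between the lines and was SLIT3 in 1205Lu (179.7, 142 and 152 per kb), SLIT1 in WM793 (253, 194 and 224) and SLIT2 in A375 (26.4, 24.2 and 15.9). Netrins, which are secreted and related to laminins, were led by NTN1 in 1205Lu (521, 410.3 and 415 per kb) and by NTN4 in WM793 (29.3, 38.7 and 40.6) and A375 (141, 146 and 154). SLIT and netrin genes therefore differed in their leading member between 1205Lu and its parent WM793.

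Among the receptors, EPHB4 led the EphB genes at 433, 467 and 477 per kb in 1205Lu, 484, 482 and 452 in WM793 and 243, 251 and 292 in A375. PLXNB2, a receptor of class 4 semaphorins, led the plexins in 1205Lu (534, 593 and 502 per kb, overlapping PLXNA1) and A375 (884, 862 and 1001), and PLXNA1, which pairs with neuropilins, in WM793 (401, 251 and 240.4), where it overlapped PLXNB2. ROBO1 led the SLIT receptors at 173, 169 and 194 per kb in 1205Lu, at 399, 421 and 339.6 in WM793 and at 196, 254 and 191 in A375. EPHB4 was thus lower and PLXNB2 higher in A375 than in both other lines. The UNC5 receptors were low, and their highest members were UNC5A in 1205Lu (50.4, 55.7 and 45.9 per kb), UNC5C in WM793 (25.7, 17.8 and 20.4) and UNC5B in A375 (15, 12.8 and 14.8). The Eph receptors EPHA1, EPHA8 and EPHA10 had a group mean below 3 in every group.

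**Figure D1:**
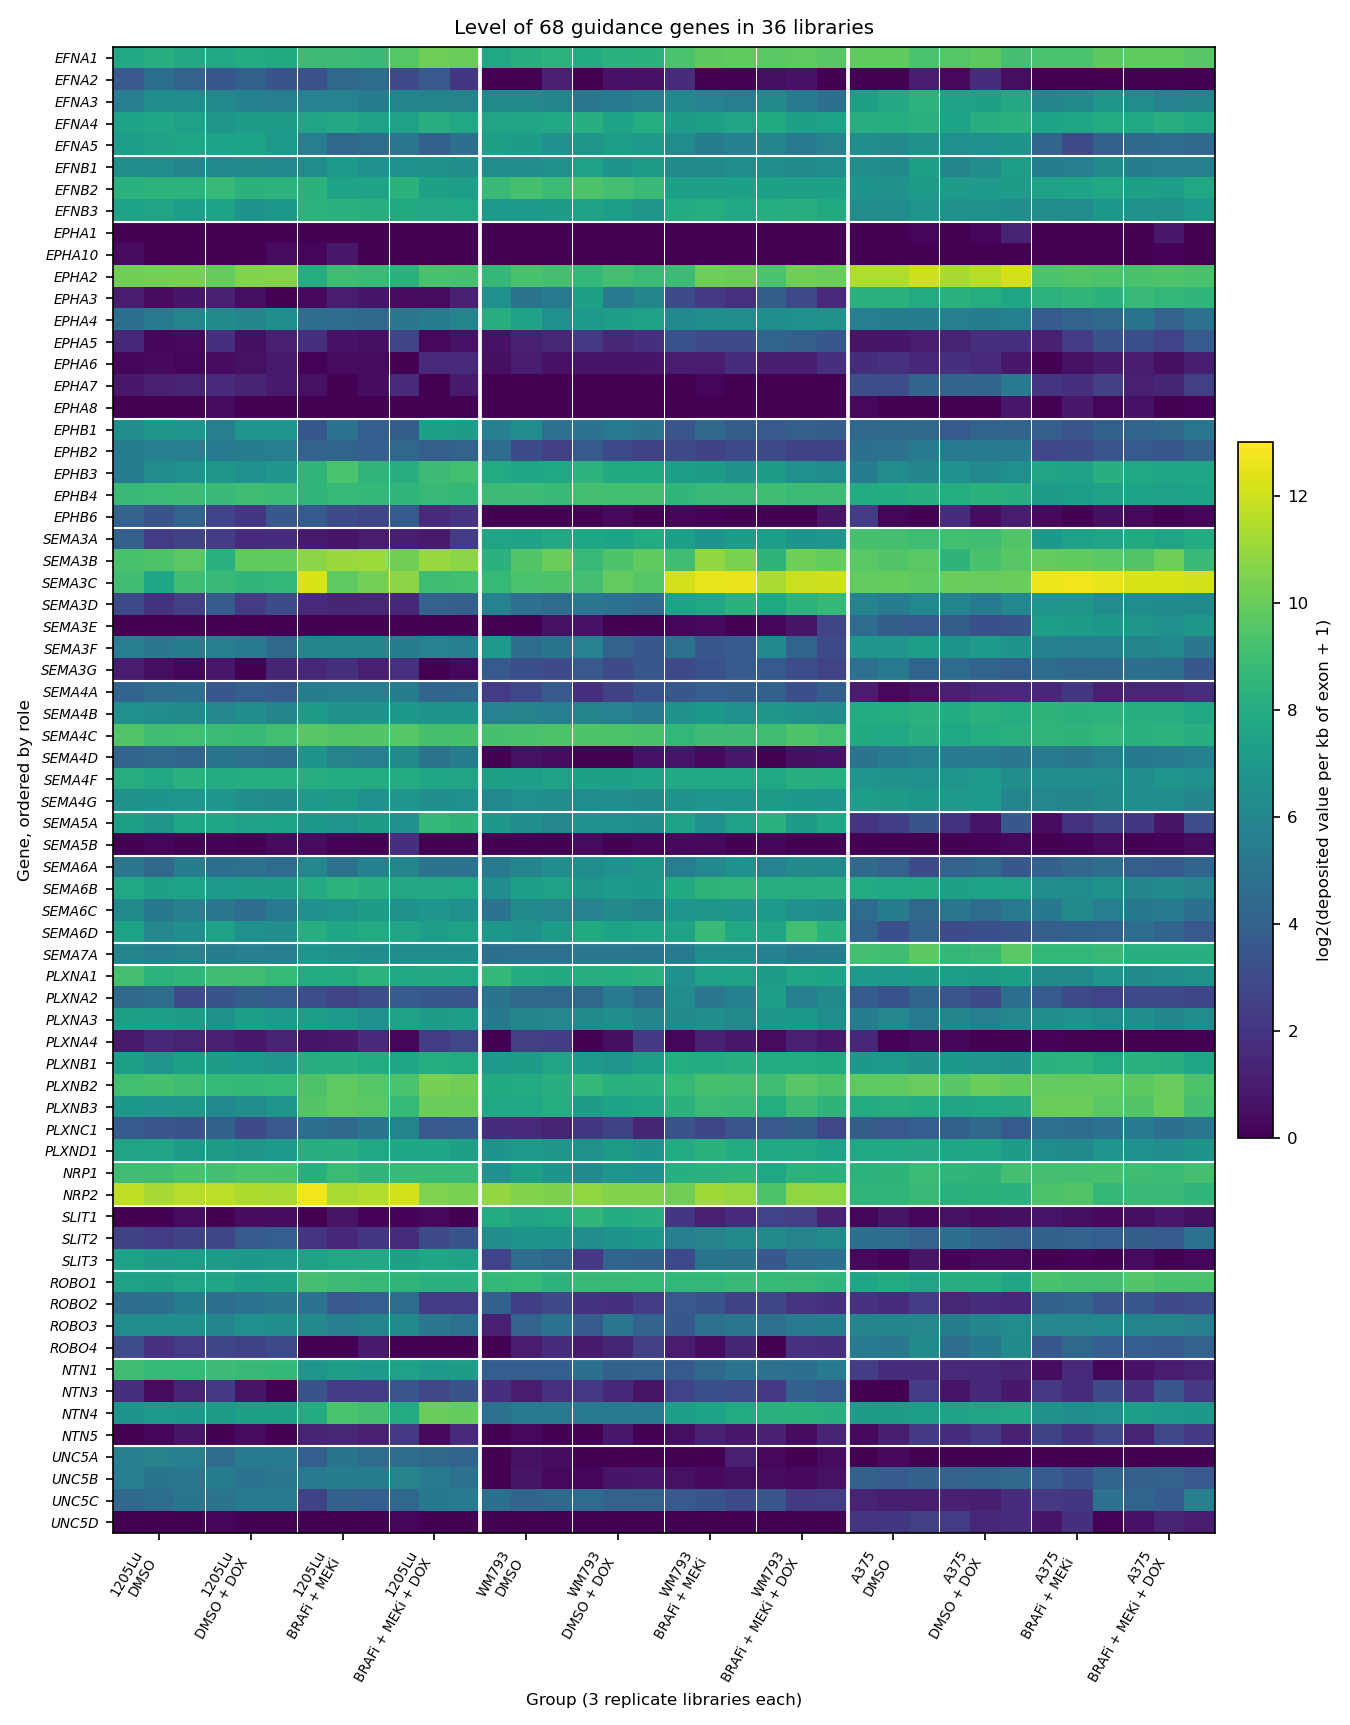
Level of the 68 guidance genes in the 36 libraries, as log2(deposited value per kb of exon + 1), with genes in rows by role (white lines) and the 3 replicates of each group side by side. EPHA2 is brightest in the DMSO and DMSO + DOX libraries of A375, SEMA3C is brighter under BRAFi + MEKi than under DMSO in each line, and SLIT1 is bright only in the WM793 libraries without inhibitors.

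DMSO levels differed between lines for 35 of 68 genes between 1205Lu and WM793, 44 between 1205Lu and A375 and 45 between WM793 and A375. All genes tested passed at 30.7%, 46.8% and 47.5%, respectively, and protein_coding genes at 39.6%, 56.2% and 55.6%. The widest difference was in SLIT1, at 2317, 1770.2 and 2047 in the WM793 DMSO libraries, 0, 0.629 and 2.96 in 1205Lu and 1.10, 5.56 and 1.19 in A375. SLIT1 was thus near the lowest detectable level in both other lines. NTN1 stood at 3342, 2632 and 2662 in 1205Lu and 26.7, 14.8 and 13.9 in A375, a log2 difference of 7.26 ± 0.43 (SE), adjusted p = 9.6e-15. SEMA3A, a secreted ligand that repels axons, was at 145, 35.0 and 43.3 in 1205Lu and 5532, 5324 and 4601 in A375 (-6.39 ± 0.39 (SE), adjusted p = 1.6e-14). These genes differed in opposite directions, NTN1 being higher in 1205Lu and SEMA3A higher in A375. Adjusted p values throughout come from the moderated test of limma on log2(value + 1), corrected over all genes by the Benjamini-Hochberg method.

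BRAFi + MEKi against DMSO addresses what inhibition of the MAPK pathway does to these genes. It changed 29 of 64 tested genes in 1205Lu (16 higher, 13 lower), 31 of 63 in WM793 (19 higher, 12 lower) and 37 of 66 in A375 (18 higher, 19 lower). Of all genes tested, 30.9%, 37.3% and 39.5% passed, and of protein_coding genes 36.2%, 44.1% and 47.5%, against 45.3%, 49.2% and 56.1% of the guidance genes. The guidance genes had a median log2 change of 0.26 (1205Lu), 0.44 (WM793) and -0.22 (A375), and all genes one of 0.11, 0.15 and 0.06. Genes that rose made up 16.5%, 20.4% and 20.5% of all genes in these lines and genes that fell 14.4%, 16.9% and 19.0%. Whether the guidance genes passed more often than other genes was not tested. SEMA3C, PLXNB1, PLXNB3 and SEMA6C rose in every line, and EFNA5, EPHA4, SEMA3A and PLXNA1 fell in every line, so both directions held ligands and receptors. Rescaling the libraries to the same total raised the median of all genes by 0.05, 0.18 and 0.14 in the 3 lines, and no called guidance gene changed sign.

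**Figure D2:**
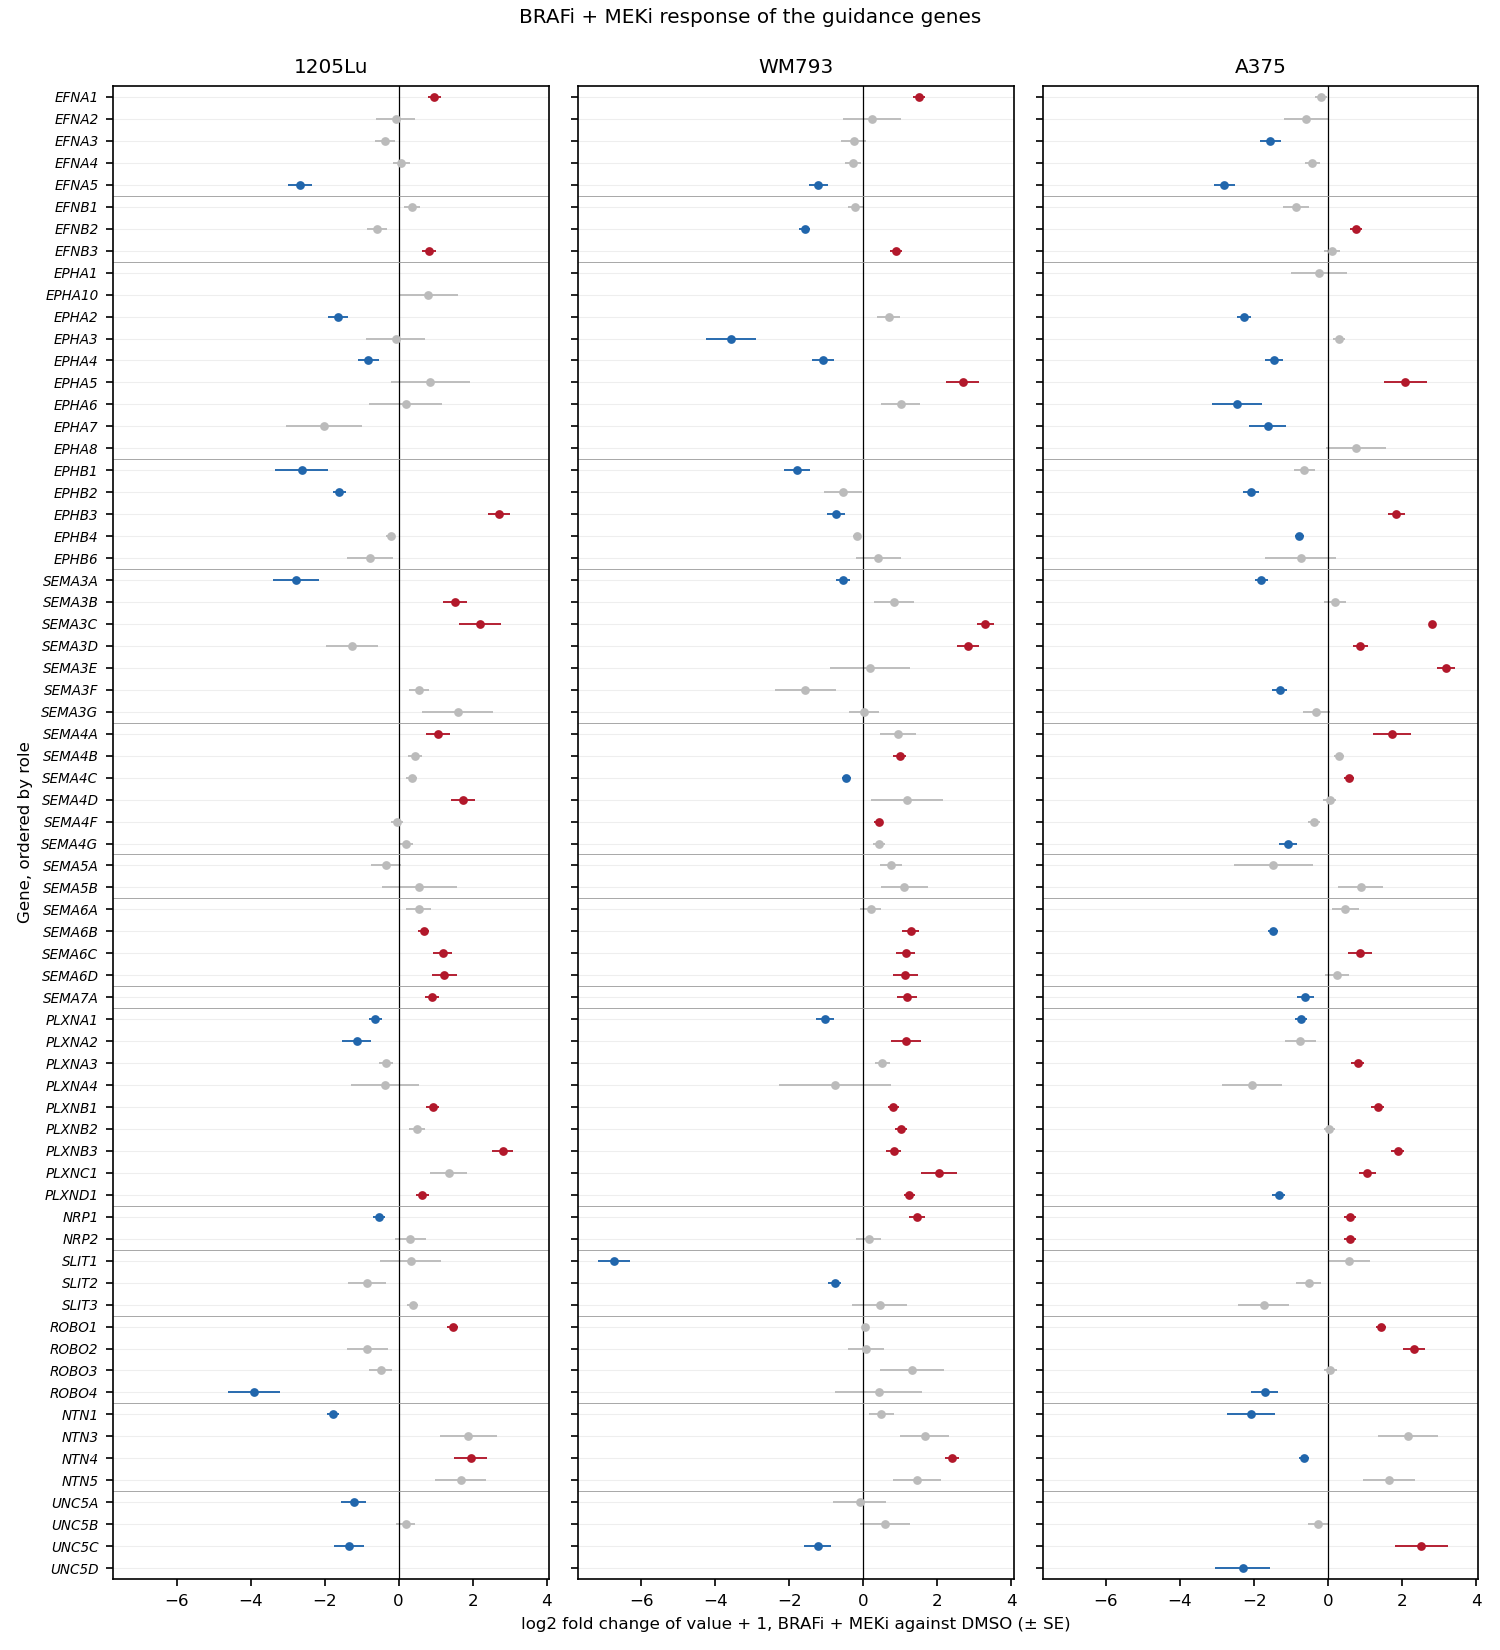
Log2 fold change (value + 1) of each tested guidance gene for BRAFi + MEKi against DMSO in each line, with its SE as a bar. Red genes rose and blue genes fell past an adjusted p of 0.05, and grey genes did not pass. EFNA5 is blue and PLXNB3 red in every line, and SLIT1 in WM793 lies farthest from 0 at -6.74.

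Of the ephrins, EFNA5 fell in every line and EFNA1 rose in 1205Lu and WM793. EFNA5 was at 849, 1023 and 1141 in 1205Lu under DMSO and 261, 109.8 and 135 under BRAFi + MEKi (-2.66 ± 0.33 (SE), adjusted p = 5.4e-05). A375 showed a fall of EFNA5 from 496, 429 and 566 to 103, 38.1 and 86.7 (-2.80 ± 0.29 (SE), adjusted p = 4.7e-06), and in WM793 the log2 change was -1.21 ± 0.24 (SE), adjusted p = 0.0015. Treated and control libraries did not overlap in any line. EFNA1 rose in 1205Lu from 463, 624 and 498 to 1057, 1056 and 961 (0.96 ± 0.17 (SE), adjusted p = 0.00089) and in WM793 by 1.5 (adjusted p = 1.6e-05), whereas in A375 it was at 1966, 1935 and 1391 and 1392, 1402 and 1818 (-0.19 ± 0.17 (SE), adjusted p = 0.41). The A375 libraries overlapped, and the response in 1205Lu exceeded that in A375 by 1.16 ± 0.26 (SE), adjusted p = 0.0023, and the response in WM793 exceeded it by 1.70 ± 0.26 (SE), adjusted p = 1.2e-05. EFNB2 fell in WM793 (log2 fold change -1.58 ± 0.15, adjusted p = 2.9e-06) and rose in A375 (0.76 ± 0.16, adjusted p = 0.0018), while EFNB3 rose in 1205Lu (0.82 ± 0.20, adjusted p = 0.0061) and WM793 (0.89 ± 0.16, adjusted p = 0.00053). A gene on the other strand shares 1822 exon bases with EFNB2, and the TruSeq RNA v2 kit named in the labels does not keep strand. EFNA3 fell in A375 (-1.56 ± 0.29, adjusted p = 0.00072), but it and EFNA4 share exons with the readthrough gene EFNA4-EFNA3, so their values are uncertain.

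The Eph receptors took opposite courses by receptor and line. EPHA2, a receptor of EFNA1, fell in A375 from 11766, 11429 and 17058 to 2634, 2923 and 2692 (-2.26 ± 0.19 (SE), adjusted p = 6.9e-07) and in 1205Lu from 4802, 5138 and 5266 to 1077, 2063 and 1909 (-1.65 ± 0.27 (SE), adjusted p = 0.00052). Neither pair of groups overlapped. In WM793, EPHA2 was at 1685, 2558 and 2332 under DMSO and 1996, 4603 and 4491 under BRAFi + MEKi (0.68 ± 0.30 (SE), adjusted p = 0.096), so it did not pass there. It passed after rescaling of the libraries to 1 total (adjusted p = 0.025) and when BRAFi + MEKi replicate 1 was left out (adjusted p = 0.005). The response in WM793 minus that in A375 was 2.94 ± 0.42 (SE), adjusted p = 4.4e-06. EPHA4, whose ligands include both ephrin types, fell in every line, with log2 fold changes of -0.81 ± 0.28, -1.09 ± 0.29 and -1.47 ± 0.24 in 1205Lu, WM793 and A375 (adjusted p = 0.037, 0.0097 and 0.00026). In 1205Lu, leaving out DMSO replicate 2 or 3 or any of the BRAFi + MEKi replicates ended the call, as did fitting only the compared libraries (adjusted p from 0.057 to 0.17). EPHA6 (-2.47 ± 0.67, adjusted p = 0.0096) and EPHA7 (-1.64 ± 0.50, adjusted p = 0.018) fell in A375, and EPHA6 shares 2010 exon bases with a gene on its own strand. The WM793 response of EPHA6 minus that of A375 was 3.47 ± 1.14 (SE), adjusted p = 0.026, whereas the difference between its 1205Lu and A375 responses did not pass (adjusted p = 0.12). EPHA7 differed by -2.02 ± 1.03 in 1205Lu (adjusted p = 0.16), was not tested in WM793, and no difference between lines passed.

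EPHA3, a receptor of A ephrins, fell in WM793 from 617, 204 and 276 to 47.4, 22.7 and 16.9 (-3.58 ± 0.68 (SE), adjusted p = 0.00091). In A375 it stood at 1982, 2048 and 1613 and 2248, 2472 and 2178, and the WM793 response minus that of A375 was -3.87 ± 0.92 (SE), adjusted p = 0.0023. EPHA3 was below 8 in every 1205Lu library under DMSO and BRAFi + MEKi. EPHA5 rose from low levels, from 5.43, 11.8 and 16.3 to 86.0, 64.9 and 65.9 in WM793 (2.69 ± 0.45 (SE), adjusted p = 0.00033) and from 6.03, 7.43 and 10.0 to 13, 38.3 and 90.2 in A375 (2.09 ± 0.58 (SE), adjusted p = 0.01). Leaving out BRAFi + MEKi replicate 3 ended the A375 call (adjusted p = 0.052), and EPHA5 shares 535 exon bases with the antisense gene EPHA5-AS1.

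Among EphB receptors, EPHB3 rose in 1205Lu from 195, 350.2 and 410.2 to 1657, 2933 and 1619 (2.71 ± 0.30 (SE), adjusted p = 2.7e-05) and in A375 by 1.84 ± 0.23 (adjusted p = 2.7e-05). In WM793 it fell, from 1097, 900.2 and 972 to 698, 642 and 458 (-0.74 ± 0.23 (SE), adjusted p = 0.024). The 1205Lu response exceeded that of WM793 by 3.45 ± 0.41 (SE), adjusted p = 9e-07. Rescaling the libraries to the same total ended the WM793 call (adjusted p = 0.10), as did leaving out DMSO replicate 1 (0.073) or BRAFi + MEKi replicate 3 (0.11). EPHB2 fell in 1205Lu from 542, 618 and 614 to 198, 214 and 171 (-1.61 ± 0.18 (SE), adjusted p = 2.2e-05) and in A375 from 342, 355 and 522 to 72.8, 89.7 and 124 (-2.09 ± 0.23 (SE), adjusted p = 7.6e-06), with no overlap in either line. EPHB1 fell in WM793 from 292, 444 and 169 to 57.3, 118 and 76.5 (-1.79 ± 0.35 (SE), adjusted p = 0.0011) and in 1205Lu from 496, 693 and 637 to 64.5, 176 and 80.1 (-2.62 ± 0.73 (SE), adjusted p = 0.014), a call that ended when BRAFi + MEKi replicate 1 (adjusted p = 0.054) or 3 (0.05) was left out. EPHB1 shares 346 exon bases with a gene on its own strand. EPHB4 fell in A375 (-0.77 ± 0.12, adjusted p = 0.00013), where its response was lower than in 1205Lu and WM793 (adjusted p = 0.008 and 0.0027).

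Of the secreted class 3 semaphorins, SEMA3C rose and SEMA3A fell in every line. SEMA3C, which acts through neuropilins and is expressed by neural crest cells, rose in A375 from 5742, 5899.8 and 5333 under DMSO to 40380.5, 41305 and 37576 under BRAFi + MEKi (2.81 ± 0.09 (SE), adjusted p = 5.9e-10). In WM793 it rose from 2567, 3840.4 and 4093 to 28220.4, 35513 and 38091 (3.29 ± 0.23 (SE), adjusted p = 2.5e-07), and in 1205Lu from 3123, 1277 and 3113 to 30196, 5337 and 7471 (2.2 ± 0.58 (SE), adjusted p = 0.011). All treated libraries lay above all controls of their line, but BRAFi + MEKi replicate 1 of 1205Lu stood far above the other two, and leaving out DMSO replicate 2 ended the call in 1205Lu (adjusted p = 0.057). SEMA3D rose in WM793 from 442, 236 and 189 to 1537, 1748 and 2674 (2.83 ± 0.30 (SE), adjusted p = 8.4e-06), while in 1205Lu it was at 53.2, 22.8 and 37.5 and 16.8, 13.1 and 13.2 (-1.27 ± 0.70 (SE), adjusted p = 0.19). The 1205Lu response minus that of WM793 was -4.10 ± 0.70 (SE), adjusted p = 0.00012. SEMA3E, a ligand of PLXND1, rose in A375 from 185, 112 and 99.4 to 1259.9, 1229 and 1035 (3.19 ± 0.24 (SE), adjusted p = 2.9e-07) and was listed at 0 in all 12 libraries of 1205Lu. SEMA3A fell in A375 from 5532, 5324 and 4601 to 1110.5, 1588 and 1806 (-1.80 ± 0.17 (SE), adjusted p = 2.7e-06), with log2 fold changes of -2.78 in 1205Lu (adjusted p = 0.0044) and -0.54 in WM793 (adjusted p = 0.036), where rescaling of the libraries (0.20) ended the call, as did 4 of the 6 leave-one-out fits (0.056 to 0.16). SEMA3B rose in 1205Lu (1.53 ± 0.33, adjusted p = 0.0031) and SEMA3F fell in A375 (-1.31 ± 0.22, adjusted p = 0.00027), and for neither did a difference between lines pass (lowest adjusted p = 0.19 and 0.08).

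Of the transmembrane class 6 semaphorins, 3 of 4 rose and none fell in 1205Lu and in WM793, where 16.5% and 20.4% of all genes rose, and 1 rose and 1 fell in A375. Neither of the 2 class 5 genes passed in any line. SEMA6C rose by 1.19 ± 0.26, 1.14 ± 0.26 and 0.86 ± 0.32 in 1205Lu, WM793 and A375 (adjusted p = 0.0032, 0.0036 and 0.045), and in A375, where the libraries overlapped, it was lost in 6 of 12 alternatives (adjusted p up to 0.20). SEMA6B rose in 1205Lu (0.67 ± 0.15, adjusted p = 0.0037) and in WM793, from 384, 713 and 809 to 1118, 1663 and 1703 (adjusted p = 0.00071), but fell in A375 (-1.49 ± 0.14, adjusted p = 3e-06). SEMA7A likewise rose in 1205Lu by 0.90 ± 0.19 and WM793 by 1.18 ± 0.27 and fell in A375 with -0.62 ± 0.23 (adjusted p = 0.0025, 0.0039 and 0.048), a call kept in 4 of 12 alternatives (adjusted p up to 0.21). The SEMA6B response exceeded that of A375 by 2.16 ± 0.26 (SE), adjusted p = 1.6e-06, in 1205Lu and by 2.77 ± 0.26 (SE), adjusted p = 8e-09, in WM793. Of 6 class 4 genes, 2 rose and none fell in 1205Lu, and 2 rose and 1 fell in each of the other lines. SEMA4D rose in 1205Lu (1.75 ± 0.32, adjusted p = 0.00098), SEMA4B in WM793 (0.98 ± 0.17, adjusted p = 0.00048) and SEMA4A in 1205Lu (1.07 ± 0.32, adjusted p = 0.02) and A375 (1.72 ± 0.52, adjusted p = 0.016). SEMA4C fell in WM793 (-0.46 ± 0.12, adjusted p = 0.009) and rose in A375 (0.57 ± 0.14, adjusted p = 0.0046). SEMA4G fell in A375 (-1.09 ± 0.25, adjusted p = 0.0035), but it shares 1215 exon bases with MRPL43 on the other strand and is uncertain.

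Of the class B plexins, which bind class 4 and other transmembrane semaphorins, PLXNB1 and PLXNB3 rose in every line. PLXNB3 rose in 1205Lu from 848, 764 and 821 to 5208, 6092 and 5789.9 (2.81 ± 0.29 (SE), adjusted p = 1.4e-05), in A375 from 1796, 1949 and 1794 to 7369, 7342 and 5778 (1.88 ± 0.18 (SE), adjusted p = 2.7e-06) and in WM793 by 0.82 ± 0.21 (adjusted p = 0.0075). The libraries did not overlap in any line. PLXNB3 shares 1432 exon bases with SRPK3 on the same strand, so reads of the 2 genes may be mixed. PLXNB1 rose by 0.92 ± 0.17, 0.80 ± 0.15 and 1.34 ± 0.17 in 1205Lu, WM793 and A375 (adjusted p = 0.001, 0.00076 and 3.6e-05). PLXNB2 rose in WM793 by 1.02 ± 0.17 (adjusted p = 0.00029) and differed by 0.49 ± 0.21 in 1205Lu and 0.03 ± 0.14 in A375 (adjusted p = 0.096 and 0.87), which did not pass. PLXNA1 fell with log2 fold changes of -0.63 ± 0.19, -1.04 ± 0.25 and -0.74 ± 0.17 in 1205Lu, WM793 and A375 (adjusted p = 0.022, 0.0043 and 0.003), with the 1205Lu call ended by leaving out DMSO replicate 1 or BRAFi + MEKi replicate 1 or 2 (adjusted p 0.075 to 0.093). The SEMA7A receptor PLXNC1 rose in WM793 from 22.3, 20.8 and 14.0 to 89.5, 55.7 and 103 (2.04 ± 0.48 (SE), adjusted p = 0.0042) and in A375 by 1.06 ± 0.22 (adjusted p = 0.0019). NRP1 rose in WM793 by 1.44 ± 0.22 and A375 by 0.59 ± 0.17 and fell in 1205Lu with -0.54 ± 0.16 (adjusted p = 0.00015, 0.012 and 0.019), and it shares 561 exon bases with a gene on the other strand. NRP2 in 1205Lu stood at 47774, 34883 and 43169 under DMSO and 94222, 36199 and 40989.5 under BRAFi + MEKi (0.32 ± 0.42 (SE), adjusted p = 0.61), with overlap. It rose in A375 (0.59 ± 0.17, adjusted p = 0.013), where the libraries also overlapped, and no difference between the lines in its response passed (lowest adjusted p = 0.60). The SEMA3E receptor PLXND1 rose in 1205Lu (0.64 ± 0.18, adjusted p = 0.014) and WM793 (1.24 ± 0.14, adjusted p = 1.7e-05) and fell in A375 (-1.34 ± 0.18, adjusted p = 4.5e-05). PLXNA2 fell in 1205Lu (-1.14 ± 0.39, adjusted p = 0.04) and rose in WM793 (1.15 ± 0.40, adjusted p = 0.038), calls kept in 3 and 8 of 12 alternatives.

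SLIT1, a secreted ligand of ROBO receptors, had the largest change of all the guidance genes. It shares 216 exon bases with the readthrough gene ARHGAP19-SLIT1 on the same strand, so reads of the 2 genes may be mixed. In WM793 it fell from 2317, 1770.2 and 2047 under DMSO to 30.0, 11 and 17.4 under BRAFi + MEKi (-6.74 ± 0.44 (SE), adjusted p = 1.4e-07). In 1205Lu (0, 5.72 and 0.874 under BRAFi + MEKi) and A375 (5.88, 3.79 and 1.99) it was low with and without inhibitors. The responses in these lines rest on values near the lowest detectable level, where the 1205Lu response minus that in WM793 was 7.07 ± 0.94 (SE), adjusted p = 4.6e-06, and the WM793 response minus that in A375 was -7.31 ± 0.94 (SE), adjusted p = 9e-07. SLIT2 fell in WM793 (-0.78 ± 0.18, adjusted p = 0.0043) and differed by -0.84 ± 0.51 in 1205Lu and -0.53 ± 0.33 in A375 (adjusted p = 0.24 and 0.23), with no difference between lines that passed (lowest adjusted p = 0.78). SLIT3 passed in no line. ROBO1 rose in 1205Lu by 1.46 ± 0.15 and in A375 by 1.43 ± 0.14 (adjusted p = 1.2e-05 and 2.9e-06) and differed by 0.06 ± 0.10 in WM793 (adjusted p = 0.71). ROBO2 rose in A375 from 43.2, 36.2 and 62.9 to 254, 299 and 168 (2.31 ± 0.30 (SE), adjusted p = 3.7e-05). ROBO4, best known from endothelium, fell in A375 (-1.71 ± 0.36, adjusted p = 0.0019) and in 1205Lu from 48.2, 17.2 and 25.7 to 0, 0 and 6.01 (-3.91 ± 0.71 (SE), adjusted p = 0.00097), and it shares 744 exon bases with a gene on the other strand. In WM793 ROBO4 was at 0, 6.65 and 14.3 and 6.40, 2.40 and 9.95, and the 1205Lu response minus that of WM793 was -4.33 ± 1.26 (SE), adjusted p = 0.018. That difference was lost in 5 of 17 alternatives (adjusted p 0.051 to 0.081), each of which left out 1 library, and it was -7.50 (adjusted p = 0.02) with a pseudocount of 0.1.

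Of the netrins, NTN4 rose in 1205Lu and WM793 and fell in A375. It went from 128, 169 and 177 to 673, 801 and 1059 in WM793 (2.40 ± 0.18 (SE), adjusted p = 4.9e-07) and from 465, 543 and 533 to 1108, 2790.2 and 2503 in 1205Lu (1.95 ± 0.45 (SE), adjusted p = 0.0046), and from 615, 639 and 672 to 437, 384 and 404 in A375 (-0.65 ± 0.14 (SE), adjusted p = 0.0016). No line showed overlap between the groups, and the 1205Lu response exceeded that of A375 by 2.60 ± 0.46 (SE), adjusted p = 0.00022, and the WM793 response exceeded it by 3.05 ± 0.46 (SE), adjusted p = 1.1e-05. NTN1 fell in 1205Lu from 3342, 2632 and 2662 to 722, 981 and 846 (-1.76 ± 0.16 (SE), adjusted p = 5.4e-06) and in A375 (-2.08 ± 0.65, adjusted p = 0.02), there kept in 9 of 12 alternatives. UNC5C, a netrin receptor, rose in A375 from 14.4, 11.7 and 10.4 to 36.8, 34.9 and 309.5 (2.52 ± 0.71 (SE), adjusted p = 0.011) and fell in 1205Lu from 219, 269 and 338 to 50.7, 162 and 145 (-1.35 ± 0.40 (SE), adjusted p = 0.02). The groups overlapped in neither line, but in A375 BRAFi + MEKi replicate 3 stood far above the other two. The 1205Lu response minus that of A375 was -3.87 ± 0.80 (SE), adjusted p = 0.0013. Without that A375 library the A375 response was 1.495 (adjusted p = 0.038) and the difference -2.84 (adjusted p = 0.0032).

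**Figure D3:**
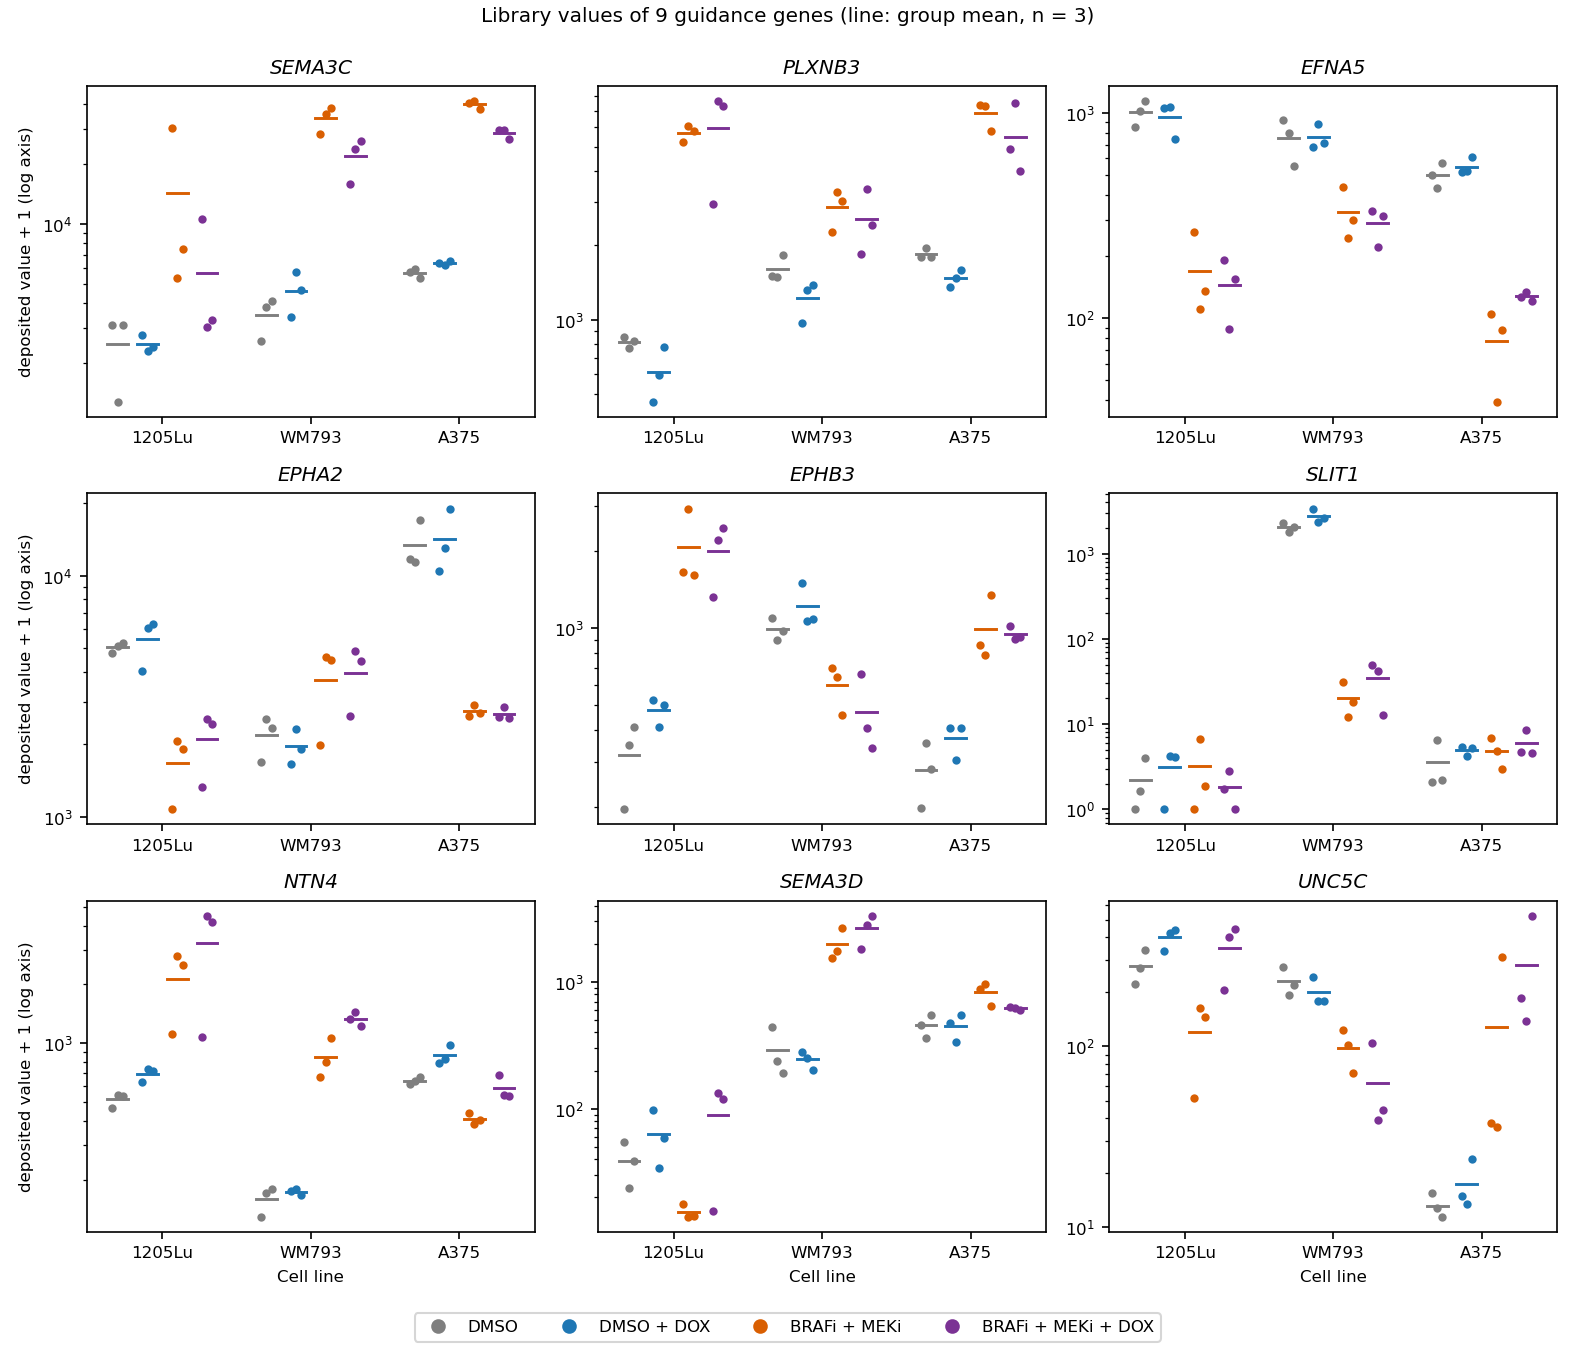
Deposited value + 1 (log axis) of 9 guidance genes in each library, by line, with the 4 treatments in colour and a bar at the group mean (n = 3). SEMA3C and PLXNB3 are higher and EFNA5 lower under BRAFi + MEKi in every line, while EPHB3, NTN4 and UNC5C move in opposite directions in 2 lines.

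Across the lines, 4 genes rose in all 3 and 4 fell in all 3, among 61 tested in each. Of the 19420 genes of the whole table tested in every line, 5.77% rose and 6.07% fell in all 3. For 10 guidance genes (EFNB2, EPHB3, SEMA4C, SEMA6B, SEMA7A, PLXNA2, PLXND1, NRP1, NTN4 and UNC5C), the test was passed in opposite directions in 2 lines, against 5.03% of the 19420 genes. A further 20 passed in 1 line and not in the others, some of them untested there. Of the 61 tested in each line, 16 passed in 1 line (26.2%) and 14 in none (23.0%), against 32.09% and 31.31% of the 19420 genes. The 19420 genes are not limited to protein_coding genes, which passed more often in each line, and the shares across lines were not taken for protein_coding genes alone. The 17 of all 68 that passed in none were EFNA2, EFNA4, EFNB1, EPHA1, EPHA8, EPHA10, EPHB6, SEMA3G, SEMA5A, SEMA5B, SEMA6A, PLXNA4, SLIT3, ROBO3, NTN3, NTN5 and UNC5B. Tested directly, the response differed for 16 of 68 genes between 1205Lu and WM793, 16 between 1205Lu and A375 and 31 between WM793 and A375, against 14.5%, 14.7% and 22.8% of all genes and 19.3%, 18.3% and 28.6% of protein_coding genes. In the last pair, 21 of the 68 had the higher response in WM793, against 12.7% of all genes, and 10 the lower, against 10.1%.

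The inhibitor response was measured a further time in the presence of DOX, in libraries not shared with the first comparison. BRAFi + MEKi + DOX against DMSO + DOX changed 30 of 64 genes in 1205Lu (20 higher, 10 lower), 33 of 63 in WM793 (22 higher, 11 lower) and 27 of 66 in A375 (12 higher, 15 lower), against 28.2%, 31.7% and 31.0% of all genes and 33.5%, 38.8% and 38.1% of protein_coding genes. Of all genes, 15.1%, 16.7% and 16.2% rose and 13.2%, 15.1% and 14.8% fell. Every gene that had passed without DOX had the same sign with DOX, 29 of 29, 31 of 31 and 37 of 37, and 20, 27 and 25 of them passed again (69.0%, 87.1% and 67.6%). Of all genes that passed without DOX, 97.4%, 97.8% and 97.8% had the same sign and 66.9%, 69.9% and 67.1% passed again in the same direction, and a difference of the guidance genes from these shares was not tested. PLXNB1 and PLXNB3 rose and EFNA5 and PLXNA1 fell in all 3 lines with DOX as well. SLIT1 in WM793 was at 3382, 2358 and 2583 under DMSO + DOX and 47.8, 40.6 and 11.9 under BRAFi + MEKi + DOX (-6.53 ± 0.44 (SE), adjusted p = 3e-07). SEMA3E in A375 was at 113, 66.5 and 77.3 and 981, 809 and 996 (3.45 ± 0.24 (SE), adjusted p = 3.3e-07). Both comparisons of each gene left the treated and control libraries apart. In 1205Lu, SEMA3C was at 2771, 2307 and 2410.3 and 10570.5, 3050.0 and 3306 with DOX (0.93 ± 0.58 (SE), adjusted p = 0.25), which did not pass, and ROBO4 was listed at 0 in all 3 BRAFi + MEKi + DOX libraries against 37.6, 31.5 and 43.5. With DOX, EPHA2 passed in WM793 (0.98 ± 0.30 (SE), adjusted p = 0.024), in the direction opposite to 1205Lu and A375, and lost the call in 4 of 12 alternatives (adjusted p 0.064 to 0.11).

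**Figure D4:**
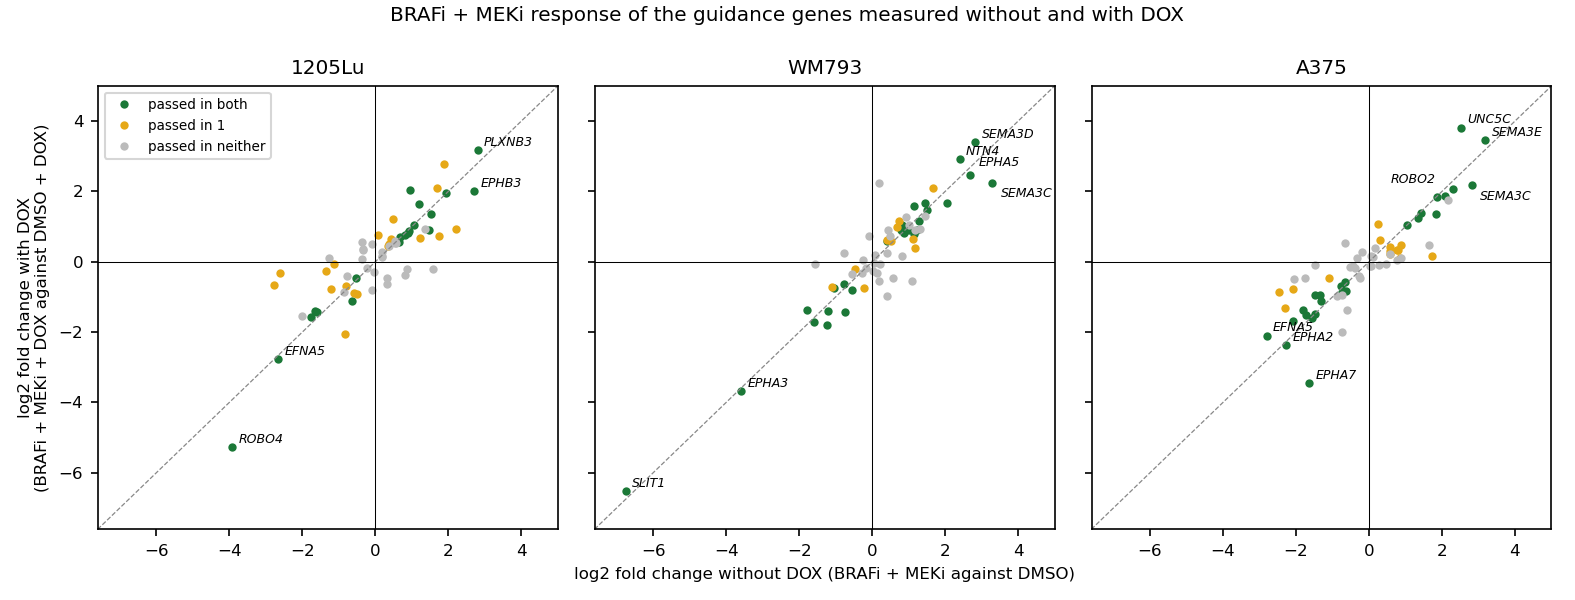
Log2 fold change (value + 1) of each tested guidance gene under BRAFi + MEKi without DOX (horizontal axis) and with DOX (vertical axis), by line; the dashed line marks equal change. Green genes passed the test in both comparisons and have the same sign on both axes, with SLIT1 of WM793 at -6.74 and -6.53.

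DOX was compared with no DOX to ask what induced NR2F1 does to these genes. In the fit of all 12 libraries of a line, with equal weights and no replicate block, EFNA1 in 1205Lu and SEMA3C in A375 passed under BRAFi + MEKi, and no guidance gene passed in WM793. The counts were 1 of 64, 0 of 63 and 1 of 66, against 0.334%, 0.204% and 1.52% of all genes, while 13, 7 and 12 guidance genes had an unadjusted p under 0.05. EFNA1 rose with DOX in 1205Lu from 1057, 1056 and 961 to 1639.7, 2426 and 2271 (1.02 ± 0.17 (SE), adjusted p = 0.027), without overlap. In WM793 EFNA1 was at 1364, 1848 and 1992 and 1739.7, 1902 and 1723, and in A375 at 1392, 1402 and 1818 and 1963, 1970.3 and 1700.1, with overlap in both lines. The EFNA1 call was kept in 6 of 12 alternatives and lost in the others, with adjusted p = 0.13 when only the libraries compared were fitted, 0.066, 0.059 and 0.086 without BRAFi + MEKi replicates 1, 2 and 3, and 0.17 and 0.16 without BRAFi + MEKi + DOX replicates 2 and 3. In 1205Lu and WM793, libraries of these 2 groups with the same replicate number deviated together, with r from 0.109 to 0.274 and from 0.105 to 0.251. In A375 r was from 0.054 to 0.17, and not every pair was over 0.1. With the replicate number as a block, 3 guidance genes passed in 1205Lu (1.64% of all genes), namely EFNA1 (adjusted p = 0.0044), UNC5C (0.0095) and ROBO1 (0.034), and 1 in WM793 (0.575% of all genes), SEMA3C (0.018).

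SEMA3C fell with DOX in A375 under BRAFi + MEKi, from 40380.5, 41305 and 37576 to 29663, 29645 and 26588 (-0.47 ± 0.09 (SE), adjusted p = 0.0089), or 0.720 times the level without DOX. Leaving out BRAFi + MEKi replicate 1 or 2 ended the call (adjusted p = 0.06 and 0.071). In WM793 SEMA3C was at 28220.4, 35513 and 38091 without and 15784, 23866 and 25948 with DOX (-0.66 ± 0.23 (SE), adjusted p = 0.43, and 0.018 with the replicate block), with no overlap between the groups and lower with DOX in each of the 3 numbered pairs. In 1205Lu it was at 30196, 5337 and 7471 and 10570.5, 3050.0 and 3306 (-1.17 ± 0.58 (SE), adjusted p = 0.55), with overlap, although it was lower with DOX in each pair. Under DMSO, SEMA3C in A375 was at 5742, 5899.8 and 5333 without and 6369, 6189.8 and 6483 with DOX (0.17 ± 0.09 (SE), adjusted p = 0.66). The DOX effect under inhibitors minus that under DMSO was -0.64 ± 0.12 (SE), adjusted p = 0.032, the only guidance gene to pass this interaction, which 0.460% of all genes passed in A375, and it was kept in 5 of 17 alternatives. No guidance gene passed the interaction in 1205Lu or WM793, where 0.00% of all genes did and 7 and 1 guidance genes had an unadjusted p under 0.05. Without a replicate block and at equal weights, the DOX effect under BRAFi + MEKi did not differ between any 2 lines past the threshold for any guidance gene, against 0.138%, 0.179% and 0.881% of all genes, with 7, 8 and 5 guidance genes at an unadjusted p under 0.05. With the replicate block, 1 guidance gene passed in each pair of lines, and array weights also gave calls in each pair. The shares of all genes in those fits are given with the processing below.

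Under DMSO, DOX changed no guidance gene past the threshold in any line by limma's test without a replicate block (0 of 64, 0 of 63 and 0 of 66), against 0.00903%, 0.512% and 0.0492% of all genes, and 6, 8 and 8 guidance genes had an unadjusted p under 0.05. With the block, SEMA6A passed in WM793 (0.70, adjusted p = 0.032 by limma, against 0.42 without it), as did 1.29% of all genes. In that comparison r was from 0.085 to 0.148, so not every numbered pair was over 0.1.

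In 1205Lu, the library of BRAFi + MEKi + DOX replicate 1 stood apart from the other two of its group. It correlated with them at r = 0.966, while they correlated with each other at 0.981. EPHB1 stood at 77.9, 929.5 and 815 in this group, against 64.5, 176 and 80.1 without DOX. SEMA3D was at 14.8, 133 and 118 against 16.8, 13.1 and 13.2. In both genes replicate 1 lay within the range without DOX and the other two lay far above it. UNC5C was at 203, 403 and 443 against 50.7, 162 and 145, and ROBO2, which was lower in the other two replicates, at 386, 69.1 and 62.4 against 502, 191 and 229.8. BRAFi + MEKi replicate 1 also lay away from its group mates in UNC5C, ROBO2, SEMA3C and NTN4. The MAPK output gene DUSP6 was at 74.6, 617 and 710.1 under BRAFi + MEKi + DOX and at 75.8, 275 and 305 under BRAFi + MEKi, so it was lowest in replicate 1 of both groups, and its part in the differences was not tested.

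With BRAFi + MEKi + DOX replicate 1 left out, an alternative in which 738 of 22221 genes passed (3.32%), 14 of the guidance genes passed for DOX in 1205Lu rather than 1. Of these, 9 were higher with DOX (EFNA1, EPHA4, EPHA6, EPHB1, SEMA3D, SEMA5A, UNC5C, PLXNB2 and PLXNA4) and 5 lower (SEMA4A, NRP2, ROBO1, ROBO2 and ROBO3). EPHB1 then differed by 3.15 ± 0.43 (SE), adjusted p = 0.0027, against 2.00 ± 0.73 (SE), adjusted p = 0.34 with all libraries. SEMA3D differed by 3.05 ± 0.49 (SE), adjusted p = 0.0069, against 2.05 ± 0.70 (SE), adjusted p = 0.30. UNC5C differed by 1.98 ± 0.40 (SE), adjusted p = 0.021, against 1.63 ± 0.40 (SE), adjusted p = 0.11, and it was higher with DOX in each of the 3 numbered pairs, as ROBO2 was lower. ROBO2 differed by -2.08 ± 0.37 (SE), adjusted p = 0.012, against -1.23 ± 0.56 (SE), adjusted p = 0.50. These calls rest on 2 libraries with DOX. With the replicate block, EPHB1, SEMA3D and ROBO2 did not pass (adjusted p = 0.073, 0.23 and 0.33). With both libraries numbered 1 left out, an alternative chosen after seeing the data, 9 guidance genes passed (2.59% of all genes), namely EFNA1, EPHB1, SEMA3D, SEMA5A, UNC5C and NTN4 upward and SEMA4A, NRP2 and ROBO2 downward, with EPHB1 at 2.86 (adjusted p = 0.0069), SEMA3D at 3.16 (0.013) and ROBO2 at -1.66 (0.015). Down-weighting libraries by array weights also gave 14 guidance genes (6.23% of all genes), of which 12 were shared with the fit without BRAFi + MEKi + DOX replicate 1. The weights are estimated from the same values. In the fit of all 36 libraries that library had the lowest weight (0.298), so these fits are not independent of each other.

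**Figure D5:**
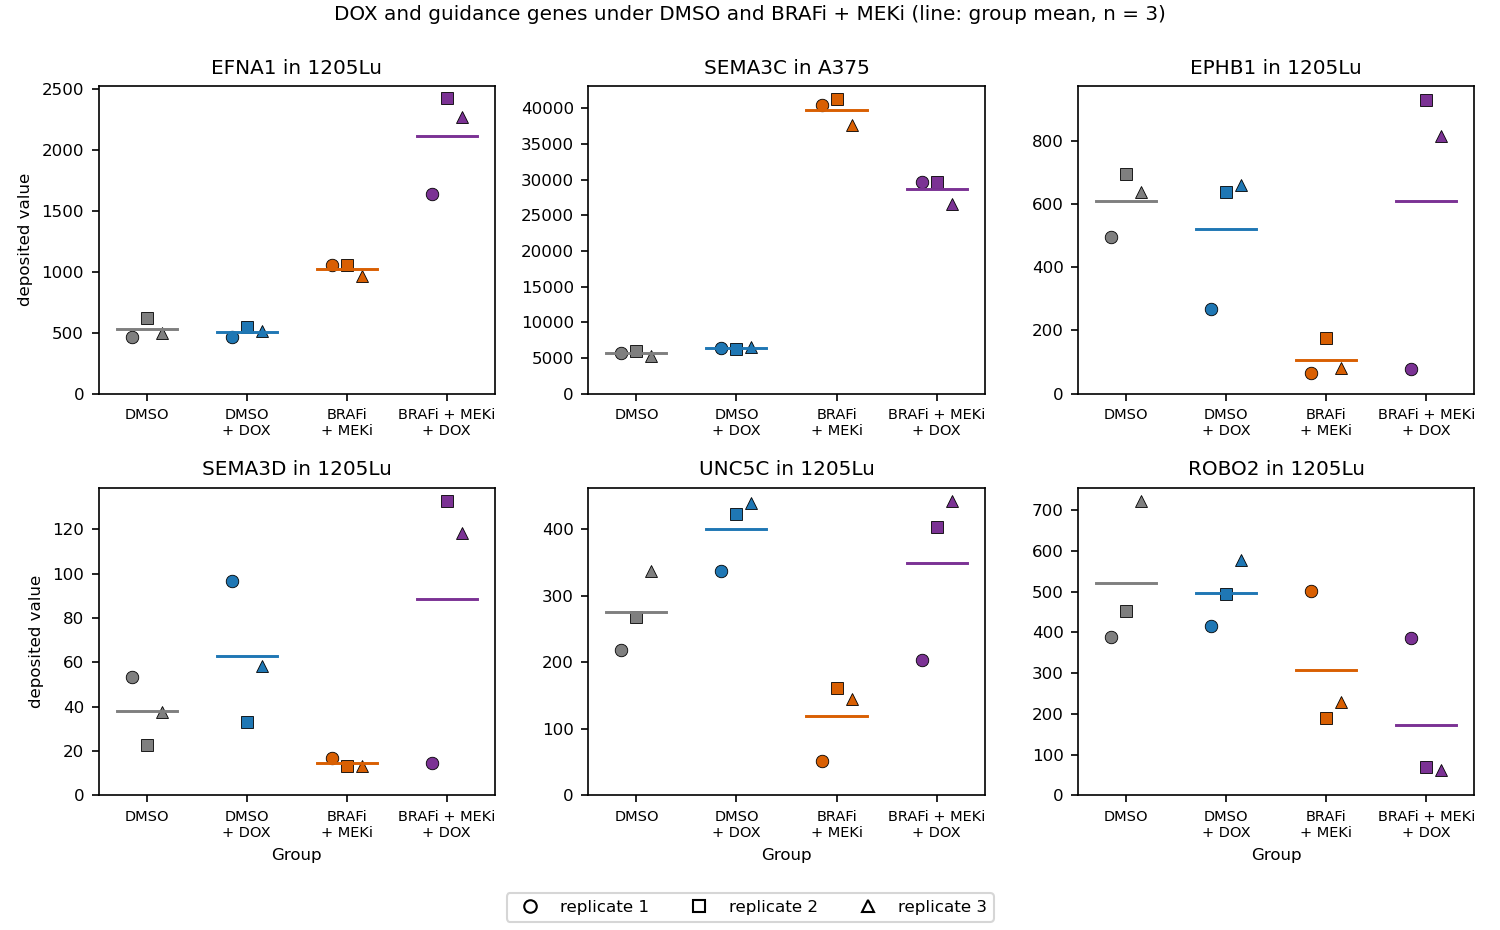
Deposited values of EFNA1, EPHB1, SEMA3D, UNC5C and ROBO2 in 1205Lu and of SEMA3C in A375, by group, with 1 symbol for each replicate number and a bar at the group mean (n = 3). In 1205Lu, BRAFi + MEKi + DOX replicate 1 (circle) lies away from the other two replicates in each of the 5 genes, and SEMA3C in A375 is lower in the 3 BRAFi + MEKi + DOX libraries than in the 3 with BRAFi + MEKi, and higher in the 3 DMSO + DOX libraries than in the 3 with DMSO.

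Other genes of the same pathways were read from lists outside the rule. Of 14 co-receptors and related ligands, BRAFi + MEKi raised 6 and lowered 2 of 12 tested in 1205Lu, raised 8 and lowered 1 of 13 in WM793, and raised 4 and lowered 3 of 13 in A375. FLRT2, a membrane ligand of UNC5 receptors, fell by 3.09, 4.78 and 3.31 on the log2 scale in 1205Lu, WM793 and A375 (adjusted p = 4.1e-05, 2.4e-06 and 0.0027), and its relative FLRT1 rose by 2.87, 2.40 and 2.37 (adjusted p = 5e-05, 5.2e-06 and 0.00038). The neuropilin-associated adhesion molecule NRCAM rose by 2.26, 1.82 and 3.06 (adjusted p = 0.023, 6e-05 and 0.0012). These 3 genes moved in the same direction in every line. Of 41 cytoplasmic transducers, 6 rose and 13 fell in 1205Lu, 11 rose and 10 fell in WM793, and 10 rose and 12 fell in A375. FARP1, a semaphorin-responsive exchange factor, fell by 1.14, 1.55 and 1.98 (adjusted p = 0.00047, 9.6e-06 and 4e-06), and LIMK2, which phosphorylates cofilin, rose by 2.32, 1.23 and 1.06 (adjusted p = 6.3e-06, 0.0036 and 0.00011). Of 3 proteases that cut ephrins and their receptors, 1, 3 and 3 rose in the 3 lines and none fell. Of all genes 30.9%, 37.3% and 39.5% passed in these lines, and whether the lists passed more often was not tested. DOX under BRAFi + MEKi raised RND3, a plexin-binding GTPase, in WM793 (0.81 ± 0.10 (SE), adjusted p = 0.0047) and FARP1 in A375 (0.95 ± 0.20 (SE), adjusted p = 0.027), and under DMSO it lowered the semaphorin effector MICAL3 in WM793 (-0.82 ± 0.13 (SE), adjusted p = 0.019).

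Marker lists moved with BRAFi + MEKi against DMSO beside the guidance genes, and their part in the changes was not tested. Of 9 melanocyte lineage genes, 5 rose in 1205Lu (MITF, SOX10, DCT, S100B and ERBB3), 6 rose in A375 (the same 5 and PMEL), and 4 rose and 1 fell in WM793. Their summed level went from 17447 to 24756 under DMSO to 55501 to 63377 under BRAFi + MEKi in 1205Lu, and from 22869 to 27368 to 40525 to 59072 in A375, whereas the ranges overlapped in WM793. Of 4 dedifferentiation genes, AXL and EGFR fell in 1205Lu and A375, and AXL and NGFR rose in WM793. Of 4 fibroblast genes, PDGFRB alone passed, rising in 1205Lu and WM793, and the list summed to 290.3 to 456 in 1205Lu under DMSO and to 1249 to 1651 under BRAFi + MEKi, with DCN below 1 in each of these libraries.

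Of the leukocyte list, CD68, which is also a lysosomal gene, fell in 1205Lu and rose in WM793, and PTPRC rose in A375. The list summed to 1919 to 2410 in 1205Lu under DMSO and to 353 to 582 under BRAFi + MEKi, with PTPRC and CD3E below 1 in each of these libraries, and CD3E was below 1 in every library of 11 groups. Of the endothelial list of 3 genes, VWF rose in 1205Lu and CDH5 fell in A375, and its sum was at most 79.8 in any library. No gene of the keratinocyte list passed for BRAFi + MEKi against DMSO, its sum was at most 261, and KRT5 and KRT14 rose in A375 when both groups had DOX. With DOX in both groups, LUM and COL1A2 of the fibroblast list also passed in A375, 1 higher and 1 lower. PECAM1, CDH5 and VWF of the endothelial list passed there as well, 1 higher and 2 lower. COL1A2 also passed in WM793 in that comparison, beside PDGFRB, and VWF rose in 1205Lu. In the fit of all libraries, no tested gene of the 26 on these lists passed for DOX under BRAFi + MEKi in any line. In 1205Lu, NGFR, DCT and S100B of BRAFi + MEKi + DOX replicate 1 lay away from the other replicates, as given above.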

How the data were processed

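RNA-Seq was analysed in 36 libraries of 3 cell lines, with 4 treatments and 3 replicates each, grouped by their labels. The labels name the TruSeq RNA v2 library kit, which does not keep strand. Per the study's methods, the authors used STAR 2.7.0 to align reads against GRCh38, quantified genes of GENCODE 35 with RSEM 1.2.28 and normalised them with DESeq2 1.28.1. The deposited signal is 1 normalised value per gene and library, scaled with factors that differ between genes. These values are not counts, and only 21.1% to 52.3% of low values were whole multiples of the commonest low value (tolerance 0.02), so no count model was run and the depth is an estimate that gives no counting interval.

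Gene names and exon lengths came from GENCODE 44 (60401 of 60656 identifiers matched). In each line, log2(value + 1) of the 12 libraries was fitted with limma 3.58.1 (R 4.3.3) with a mean-variance trend, for genes with a group mean of at least 1, and p-values were adjusted over all genes tested (Benjamini-Hochberg, threshold 0.05). Lines were compared in 1 fit of all 36 libraries. Fold changes are on the log2(value + 1) scale, which understates those of low genes. Tables and plots were made with Python 3.11.15, pandas 2.3.3, numpy 2.4.6 and matplotlib 3.10.9. Simulated data held 20393, 19911 and 22582 genes for 1205Lu, WM793 and A375. In each line 100 genes were changed by 1 and 100 by 2 on the log2 scale. The BRAFi + MEKi fits called 37, 60 and 55 of the former and 82, 91 and 86 of the latter. In the data a far larger share passed, 30.9%, 37.3% and 39.5% of all genes. The adjustment is stricter when few genes change, so the simulated counts do not give the share of changes that the reported fits found.

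Library values are given for guidance genes with a group mean of at least 10 that passed with and without DOX (at most the 8 largest changes of a line), for DOX, or for a difference in response between lines (at most the 6 largest), and for the highest gene per kb of each role. Other genes are given by fold change or count, except SEMA3A and further lines of the genes so chosen, which were added after their values were seen. The guidance genes and the lists were chosen with earlier results of these data known. The alternatives changed the pseudocount to 0.1, dropped the filter on low values, or used rescaled libraries, a replicate block, array weights, only the compared libraries, and leaving out each library in turn. Libraries with the same replicate number deviated together in every pair (r over 0.1) only for DOX under BRAFi + MEKi in 1205Lu and WM793, 2 of 12 comparisons. The numbers were treated as pairing there from this check, with the unblocked fit as reported and the blocked value beside it. Every sample column was used.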

Additional observations from a re-analysis of the deposited data

Results flagged for a closer look

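Each of the results here is a response that differed between lines or conditions by a test of the difference itself. The SLIT1 response to BRAFi + MEKi in 1205Lu exceeded that in WM793 by 7.07 on the log2 scale, and the response in WM793 minus that in A375 was -7.31. SLIT1 stood at 0 to 2.96 in 1205Lu and 1.10 to 5.56 in A375 under DMSO, near the lowest detectable level, so it could not fall there as it did in WM793. The SEMA3D response in 1205Lu minus that in WM793 was -4.10, and that of ROBO4, on values under 50, was -4.33, a call kept in 12 of 17 alternatives, with -7.50 for a pseudocount of 0.1. The EPHA3 response in WM793 minus that in A375 was -3.87, and the UNC5C response in 1205Lu minus that in A375 was also -3.87, with 1 library of A375 far above the other two. The SEMA3C effect of DOX in A375 was lower under BRAFi + MEKi than under DMSO by a log2 difference of -0.64, and this call was kept in 5 of 17 alternatives.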

How the results depend on the processing

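Counts of guidance genes that passed for BRAFi + MEKi against DMSO, with or without DOX, stayed within 1.5 times of those reported under every alternative, and no named gene changed direction. Of the genes called without DOX, 18 of 29 in 1205Lu, 24 of 31 in WM793 and 28 of 37 in A375 passed under every alternative. Of those called with DOX in both groups, 17 of 30, 26 of 33 and 25 of 27 did so. For the BRAFi + MEKi response between lines, 11 of 16 calls (1205Lu and WM793), 12 of 16 (1205Lu and A375) and 19 of 31 (WM793 and A375) did so. Leave-one-out fits gave 13 to 17, 12 to 16 and 21 to 29 calls for these pairs. Not every lost call is given beside its gene above. Counts for DOX moved most. For DOX under BRAFi + MEKi in 1205Lu, 14 genes passed with array weights (6.23% of all genes), 0 with only the compared libraries (0.0283%) and 0 to 14 when libraries were left out in turn, with 14 reached without BRAFi + MEKi + DOX replicate 1 (3.32%) and 0 without any other library of the 2 groups. With both libraries numbered 1 left out, an alternative added after seeing the data, 9 passed (2.59%). In A375, 6 passed with array weights (4.25% of all genes, against 1.52% as reported) and 0 to 3 in leave-one-out fits (0 without BRAFi + MEKi replicate 1 or 2, with 0.917% and 0.97% of all genes, and 3 without replicate 3, with 2.56%). For the interaction, 1 passed with array weights (0.0903%) and 0 to 2 in leave-one-out fits in 1205Lu (2 without BRAFi + MEKi + DOX replicate 1, with 0.257%), and 0 with no filter (0.319%) and 0 to 1 in leave-one-out fits in A375 (1 only without BRAFi + MEKi replicate 3). For the DOX effect between lines, array weights gave 6 (1205Lu and WM793), 4 (1205Lu and A375) and 2 (WM793 and A375) of 68, beside 3.13%, 2.93% and 2.79% of all genes, and leave-one-out fits 0 to 3, 0 to 3 and 0 to 1, with 3 reached without 1205Lu BRAFi + MEKi + DOX replicate 1 (1.46% and 1.66%) and 1 without A375 BRAFi + MEKi replicate 3 (1.34%). The cause was not tested.

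Over all comparisons, libraries with the same replicate number correlated in their deviations with r from 0.004 to 0.274, and every pair was over 0.1 in 2 of 12 comparisons, DOX under BRAFi + MEKi in 1205Lu and WM793. Elsewhere at least 1 numbered pair of each comparison was not over 0.1. All 36 correlations lay above 0, with a median of 0.0955 and 15 over 0.1, and the unblocked fits take no account of this. With the number as a replicate block, DOX under BRAFi + MEKi called 3 genes in 1205Lu (1.64% of all genes) and 1 in WM793 (0.575%), DOX under DMSO 1 of 63 in WM793 (1.29%), the interaction 2 in A375 (0.661%) and the DOX effect 1 in each pair of lines (0.609%, 0.635% and 1.36%). Whether guidance genes passed more often than other genes in any of these fits was not tested. The estimated value of 1 read differed between libraries, which matters for low genes, and the effect of depth on their calls was not tested.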
